A study of Homo sapiens with 4 samples.

Results

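The genes described here code for structural proteins of the extracellular matrix and for enzymes that crosslink them. They were taken as a list of 38 named gene symbols and comprised 128 probe sets of the 54675 on the array. They are 38 of the 19775 genes that a probe set with a single gene symbol represents. Total RNA of 4 sorted cell subpopulations was hybridised to 1 Affymetrix array each, all from PC14, an established line of human non-small-cell lung cancer. Cells were separated by fluorescence into E-cadherin-low (E-cad-low) and E-cadherin-high (E-cad-high) populations. Each was then split into CD133-high and CD133-low cells by green fluorescent protein under the P1 promoter of the CD133 gene, carried by a lentivirus. The 4 groups were therefore E-cad-low CD133-high, E-cad-high CD133-high, E-cad-low CD133-low and E-cad-high CD133-low cells, all of a single line and isolated with the same reporter. E-cadherin is the adhesion protein of epithelial cells, and CD133 is a surface protein used to mark stem-like cancer cells.

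The extracellular matrix is the secreted scaffold around cells. Fibril-forming collagens are triple helices that pack into fibres, type IV collagens and laminins build the sheet-like basement membrane under epithelia, and fibrillins, fibronectin and proteoglycans connect or space these networks. Epithelial cells mainly make basement membrane components, whereas fibroblasts are the usual source of fibrillar collagens and of small proteoglycans. Loss of E-cadherin in carcinoma cells often goes with a shift towards matrix genes of the mesenchymal kind.

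The values are deposited MAS5 signals, which have arbitrary linear units and allow a probe set to be compared between arrays but not with another probe set. Of several probe sets of a gene, the one with the highest log2 signal on average over the arrays stands for it and is called the main probe set. Without detection calls, the median signal of an array served as its floor (53.7 to 60.3), and a gene was called measured when it exceeded the floor on at least 1 array. With 1 array per subpopulation no difference has a replicate check, and the p values given below measure no spread between replicates. The 4 arrays give 2 matched pairs for each sorted marker, and the counts below take a gene as higher or lower only if both pairs showed a ratio of 2-fold or more, in 1 direction. Where the lower signal of a pair lay under the floor, the fold was computed against the floor and is written "at least". RNA from all sorted cells was pooled on an array, so fewer cells of a type and less RNA per cell cannot be told apart.

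The labelled cells were checked by their markers. Of 6 carcinoma epithelial markers 5 were above the floor on all 4 arrays, and KRT19 was below it on all 4. CDH1, the E-cadherin gene, read 347.0 and 527.8 in E-cad-low CD133-high and E-cad-low CD133-low cells, against 5548 and 3546 in the E-cad-high cells of the same CD133 class. PROM1, the CD133 gene, lay below the floor on all 4 arrays (4.79 to 29.7), so its signal did not check that sort. Between 12309 and 12459 genes were above the floor of an array. Of 9 fibroblast markers 3 were measured (FAP, S100A4 and MFAP5), while PDGFRA, PDGFRB, THY1, PDPN, TCF21 and DPT lay below the floor on all arrays. The summed signal of that list was 6883 and 5421 in E-cad-low and E-cad-high CD133-high cells, against 619.3 and 605.5 in the CD133-low cells. In CD133-high cells most of it was S100A4, which read 5970.0 and 5129 there, against 196.1 and 286.2 in CD133-low cells. Of 8 leukocyte markers on the array 5 were measured, and CD14, LYZ and MS4A1 were below the floor throughout. PTPRC alone was above the floor on all 4 arrays and read 1102 and 1246 in CD133-high cells, against 505.0 and 345.6 in CD133-low cells. CSF1R was above it in E-cad-low cells only, at 70.4 in the CD133-high and 81.5 in the CD133-low class. CD3D passed it in E-cad-low CD133-low cells only (68.4) and CD3E in E-cad-high CD133-low cells only (62.5). TYROBP passed it in E-cad-high CD133-high cells only (54.9). Of 7 endothelial markers PECAM1 and TEK were measured, and VWF, CDH5 and CLDN5 were below the floor on all arrays. Of 7 smooth muscle and pericyte markers 4 were measured. The summed signal of all 7, measured or not, was 565.4 and 356.3 in E-cad-low and E-cad-high CD133-high cells, against 438.2 and 301.3 in CD133-low cells. RGS5, a pericyte marker, read 271.0 and 89.6 in CD133-high cells, against 106.5 and 57.4 in CD133-low cells, so it was highest in E-cad-low CD133-high cells, while TAGLN read 84.7 and 82.5 against 137.8 and 112.3. ACTA2 read 33.7, below the floor, in E-cad-low CD133-high and 107.1 in E-cad-high CD133-high cells, against 79.8 and 87.6 in CD133-low cells. DES passed the floor in E-cad-low cells only, at 74.1 in the CD133-high and 68.3 in the CD133-low class. The part of all these cell type markers in the results was not tested.

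Of the 38 matrix genes, 31 were measured (81.6%, against 71.2% of all genes) and 22 were above the floor on all 4 arrays (57.9%, against 55.1%). COL6A3, SPARC, TNC, BGN, LAMA4, LOX and HSPG2 were below the floor on every array and gave no ratio. Of the 31, 12 differed at least 4-fold between their highest and lowest array (38.7%, against 4.18% of measured genes). The array of CD133-high cells of either E-cadherin class was the highest for 25 of 31 (80.6%, against 49.1%). E-cad-low CD133-high cells alone were highest for 15 (48.4%, against 28.7%), E-cad-high CD133-high cells for 10 (32.3%, against 20.5%), E-cad-high CD133-low cells for 5 (16.1%, against 26.4%) and E-cad-low CD133-low cells for 1, COL18A1 (3.23%, against 24.5%). The lowest array was that of E-cad-low CD133-low cells for 17 (54.8%, against 26.9%), E-cad-high CD133-low cells for 8 (25.8%, against 24.4%), E-cad-high CD133-high cells for 4 (12.9%, against 21.2%) and E-cad-low CD133-high cells for 2 (6.45%, against 27.5%). These shares describe the list and come with no test. The list was chosen with earlier results of these data known, so its shares and counts, here and below, are not independent of those results. The actin 3' to 5' signal ratio, a sign of RNA quality, was 1.78 on the array of E-cad-low CD133-high cells and 1.53 to 1.59 on the others, and its part in these shares was not tested.

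**Figure D1:**
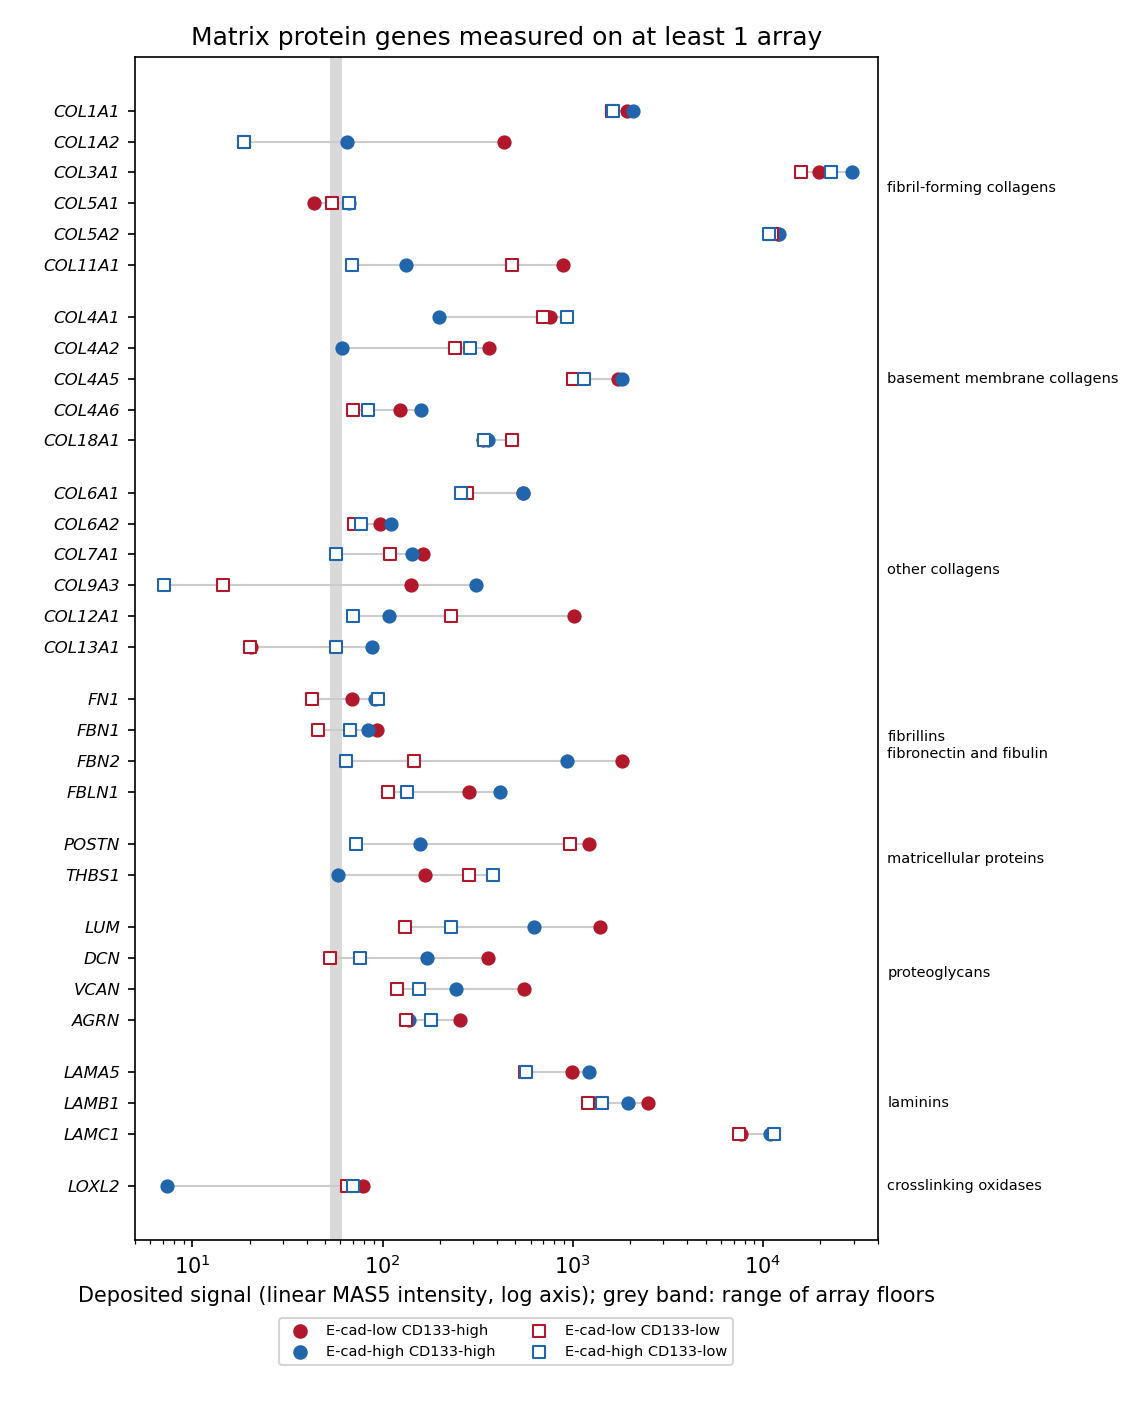
Deposited signal (linear intensity on a log axis) of the 31 measured matrix protein genes in the 4 subpopulations, grouped by protein class. Each symbol is 1 array, filled for CD133-high and open for CD133-low cells, and the grey band spans the array floors of 53.7 to 60.3. FBN2, COL9A3, FBLN1, LUM and DCN, among other genes, have both filled symbols to the right of both open ones. POSTN, COL11A1 and COL12A1 have both E-cad-low (red) symbols to the right of both E-cad-high (blue) ones.

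The sequences next to the start of transcription are shown for a chosen few of the matrix genes, not for all that are counted below. They were read from RefSeq promoter records (GRCh38.p14), which held 28 of the 38 genes, and end before the first transcribed base. All are given 5′ to 3′ on the minus strand, with CCAAT and TATAAA on either strand in capitals. COL4A1 and COL4A2 lie head to head on chromosome 13, and the 126 bases between their starts (chr13:110307158-110307283) serve as upstream sequence of both. COL4A6 and COL4A5 lie head to head on chromosome X with 379 bases between them, of which the 250 next to COL4A6 are given (chrX:108439459-108439708). COL11A1 (chr1:103108523-103108772) and POSTN (chr13:37598769-37599018) had the largest E-cadherin ratios of the list over both pairs, and FBN2 (chr5:128538246-128538495) had the largest CD133 ratios of the list.
COL4A1 and COL4A2: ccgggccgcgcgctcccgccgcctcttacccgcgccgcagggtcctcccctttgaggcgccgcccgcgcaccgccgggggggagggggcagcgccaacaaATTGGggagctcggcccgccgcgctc
COL4A6: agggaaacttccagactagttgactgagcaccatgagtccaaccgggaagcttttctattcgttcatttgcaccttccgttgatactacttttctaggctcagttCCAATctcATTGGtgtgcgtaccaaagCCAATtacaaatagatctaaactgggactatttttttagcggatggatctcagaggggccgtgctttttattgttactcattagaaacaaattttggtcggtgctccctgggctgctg
COL11A1: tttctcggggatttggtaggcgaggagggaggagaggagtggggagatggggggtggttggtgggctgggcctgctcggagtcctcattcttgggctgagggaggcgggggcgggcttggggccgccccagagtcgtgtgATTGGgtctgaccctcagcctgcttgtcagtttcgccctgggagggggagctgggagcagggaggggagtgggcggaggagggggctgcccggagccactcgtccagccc
POSTN: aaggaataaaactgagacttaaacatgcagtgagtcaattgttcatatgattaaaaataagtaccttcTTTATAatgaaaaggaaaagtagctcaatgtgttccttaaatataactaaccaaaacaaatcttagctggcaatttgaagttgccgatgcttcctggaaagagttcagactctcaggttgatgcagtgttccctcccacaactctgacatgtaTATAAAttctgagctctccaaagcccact
FBN2: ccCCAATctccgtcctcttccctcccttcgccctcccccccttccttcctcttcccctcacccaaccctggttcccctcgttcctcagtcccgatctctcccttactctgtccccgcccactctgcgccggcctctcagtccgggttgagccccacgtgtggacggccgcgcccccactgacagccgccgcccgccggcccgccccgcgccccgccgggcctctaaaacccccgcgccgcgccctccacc

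The region between COL4A1 and COL4A2 held 1 CCAAT, on the strand opposite to the one printed, and 80.2% G and C. The sequence of COL4A6 had 44.0% G and C and 3 CCAAT. POSTN had 36.4% G and C and held TATAAA at 2 places, and the other printed sequences held none. In windows of 300 bases that also include the first 50 transcribed bases, CCAAT occurred in 9 of 28 matrix promoters (32.1%) and in 34.6% of 35116 promoters, and TATAAA in 4 of 28 (14.3%) and in 11.5%. GGGCGG, the GC box, occurred in 20 of 28 (71.4%) against 44.95%, in windows whose median G and C content was 69.2% against 58.7%. CACCTG, a sequence bound by the E-cadherin repressor ZEB1, occurred in 1 of 28, that of LAMA5, against 20.6%. Both strands were searched, matches of GGGCGG can overlap each other, and a match describes letters and not a site.

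In the CD133 comparison, 5 of the 31 measured matrix genes were at least 2-fold higher in CD133-high cells in both pairs, against a background of 2.45% of 14083 measured genes, and 0 were lower, against 1.12%. The 5 were FBN2, FBLN1, LUM, DCN and COL9A3, which code for microfibril and basement membrane glycoproteins, small proteoglycans and a cartilage collagen. The median log2 ratio of the 31 was 0.72 in E-cad-low and 0.52 in E-cad-high cells, with a median of 0.00 over all measured genes in either pair. Ratios were above 0 in both pairs for 21 of 31 genes (67.7%, against 29.0%) and below 0 in both for 1, THBS1 (3.23%, against 28.8%). By class, the median log2 ratios in E-cad-low and E-cad-high cells were 2.43 and 0.91 for 4 measured proteoglycans, 1.07 and 0.96 for 4 fibrillin, fibronectin and fibulin genes, 0.82 and 0.45 for 3 laminins, and 0.78 and 0.86 for 6 other collagens. They were 0.59 and 0.07 for 5 basement membrane collagens, 0.29 and 0.27 for 6 fibril-forming collagens, -0.21 and -0.80 for 2 matricellular protein genes, and 0.28 and -0.38 for LOXL2, the 1 measured crosslinking oxidase. With the floor at the 65th percentile COL9A3, DCN and FBLN1 no longer passed the rule, and with the mean over the probe sets of a gene LUM and DCN did not. FBN2 alone of the 5 passed when probe sets whose ID marks them as shared were left out. In an additive limma fit, which takes the effects of both markers as independent and has 1 residual degree of freedom, 1 of 31 matrix genes was higher at an adjusted p under 0.05 (background 1.31%) and 0 lower (background 0.738%). At an unadjusted p under 0.05 it had 16 higher (background 10.2%) and 1 lower (background 7.94%). With a spread that does not vary with the signal the adjusted counts were 1 and 0 (backgrounds 0.192% and 0.199%). At 1.5-fold in both pairs 12 genes were higher (background 6.63%) and 1 lower (background 3.93%), and at 3-fold 1 was higher (background 0.675%) and 0 lower (background 0.433%).

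FBN2 codes for fibrillin-2, a glycoprotein of the microfibrils of developing elastic tissue. Its signal was 1808 and 938.1 in E-cad-low and E-cad-high CD133-high cells, against 146.9 and 64.1 in E-cad-low and E-cad-high CD133-low cells. The CD133-high arrays were far above the CD133-low ones, 12.3-fold in E-cad-low and 14.6-fold in E-cad-high cells, with an adjusted p of 0.00377 in the additive limma fit. A second probe set read 320.7 and 144.4 in CD133-high cells, against 32.9 and 27.4, both below the floor, in CD133-low cells. FBN2 was also higher in E-cad-low than in E-cad-high cells by 1.93-fold among CD133-high and 2.29-fold among CD133-low cells, so its 4 arrays were ordered by both markers. FBN1, the fibrillin of adult microfibrils, read 94.0 and 83.8 in CD133-high cells, against 45.7 and 67.9 in CD133-low cells, all close to the floor.

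FBLN1, fibulin-1, binds fibronectin, basement membranes and elastic fibres. It read 285.5 and 414.4 in E-cad-low and E-cad-high CD133-high cells, against 106.9 and 134.8 in the matching CD133-low cells. Both CD133-high arrays were above both CD133-low ones, by 2.67-fold and 3.07-fold, with an adjusted p of 0.0648 in the additive limma fit. All 4 other probe sets of FBLN1 had ratios above 0 in both pairs, and 1 of them passed the 2-fold rule in both, with 251.3 and 260.8 against 84.7 and 113.8. FN1, the gene for fibronectin, was near the floor on all arrays (42.6 to 94.8 by its main probe set) and showed no order by CD133.

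LUM and DCN code for lumican and decorin, small leucine-rich proteoglycans that bind collagen fibrils and control their spacing. The genes neighbour each other on chromosome 12, 28989 bases apart (LUM chr12:91102629-91111494 and DCN chr12:91140484-91182817). LUM read 1390.1 and 625.9 in E-cad-low and E-cad-high CD133-high cells, against 130.9 and 227.8 in the CD133-low cells. DCN read 358.4 and 170.8 in CD133-high cells, against 52.9 and 76.1 in CD133-low cells. In both genes the array order was the same, with E-cad-low CD133-high cells highest and E-cad-low CD133-low cells lowest. The CD133 fold was 10.6 for LUM and at least 6.28 for DCN in E-cad-low cells, and 2.75 and 2.24 in E-cad-high cells. Adjusted p values in the additive limma fit were 0.0525 for LUM and 0.0653 for DCN. The 2 further DCN probe sets above the floor also had positive CD133 ratios in both pairs, but neither passed 2-fold in both, and the other LUM probe set was below the floor. MFAP5, 1 of the measured fibroblast markers, read 717.3 and 82.0 in CD133-high cells, against 59.6 and 72.1 in CD133-low cells, and FAP, another, read 107.2 and 77.1 against 212.8 and 170.2. The markers thus differed from each other in direction, and their part in the LUM and DCN values was not tested.

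COL9A3 codes for a chain of type IX collagen, which sits on the surface of cartilage fibrils. It read 142.0 and 310.1 in E-cad-low and E-cad-high CD133-high cells, against 14.5 and 7.10 in CD133-low cells, both below the floor. It was thus at least 2.49-fold and at least 5.40-fold higher with CD133, with an adjusted p of 0.0516 in the additive limma fit. It has a single probe set. Unlike LUM and DCN, its E-cad-high CD133-high array was the higher of the CD133-high pair, by 2.18-fold.

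Further genes had CD133 ratios above 0 in both pairs without passing the rule. COL6A1, a chain of the beaded filaments of type VI collagen, read 550.3 and 548.7 in CD133-high cells, against 279.0 and 259.6 in CD133-low cells, folds of 1.97 and 2.11. These values rest on 1 of its 8 probe sets. Just 1 other passed the floor, on the E-cad-high CD133-high array alone (57.6). LAMA5, a laminin chain of epithelial basement membranes, read 988.8 and 1216 against 559.9 and 566.1, folds of 1.77 and 2.15. LAMB1, a second laminin chain, read 2494 and 1956 against 1196 and 1429.8, with a fold of 2.08 in E-cad-low and 1.37 in E-cad-high cells. In these 3 genes every CD133-high array exceeded every CD133-low array. COL4A5 and COL4A6, chains of basement membrane collagen whose starts face each other, had similar CD133 ratios. COL4A5 read 1724 and 1808 in CD133-high cells, against 999.7 and 1149 in CD133-low cells, and COL4A6 read 123.3 and 158.5, against 69.9 and 84.4. Their folds were 1.72 and 1.57 for COL4A5 and 1.76 and 1.88 for COL4A6, in E-cad-low and E-cad-high cells. The COL4A6 values rest on 1 of its 3 probe sets, the others being below the floor throughout. Its mean log2 CD133 ratio of 0.86 became 0.04 with the floor at the 65th percentile and 0.0 with the mean over probe sets. COL7A1, the anchoring fibril collagen, read 163.2 and 143.4 in CD133-high cells, against 109.5 and 57.0 in CD133-low cells, and COL6A2 read 96.5 and 111.3 against 71.2 and 77.4.

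**Figure D2:**
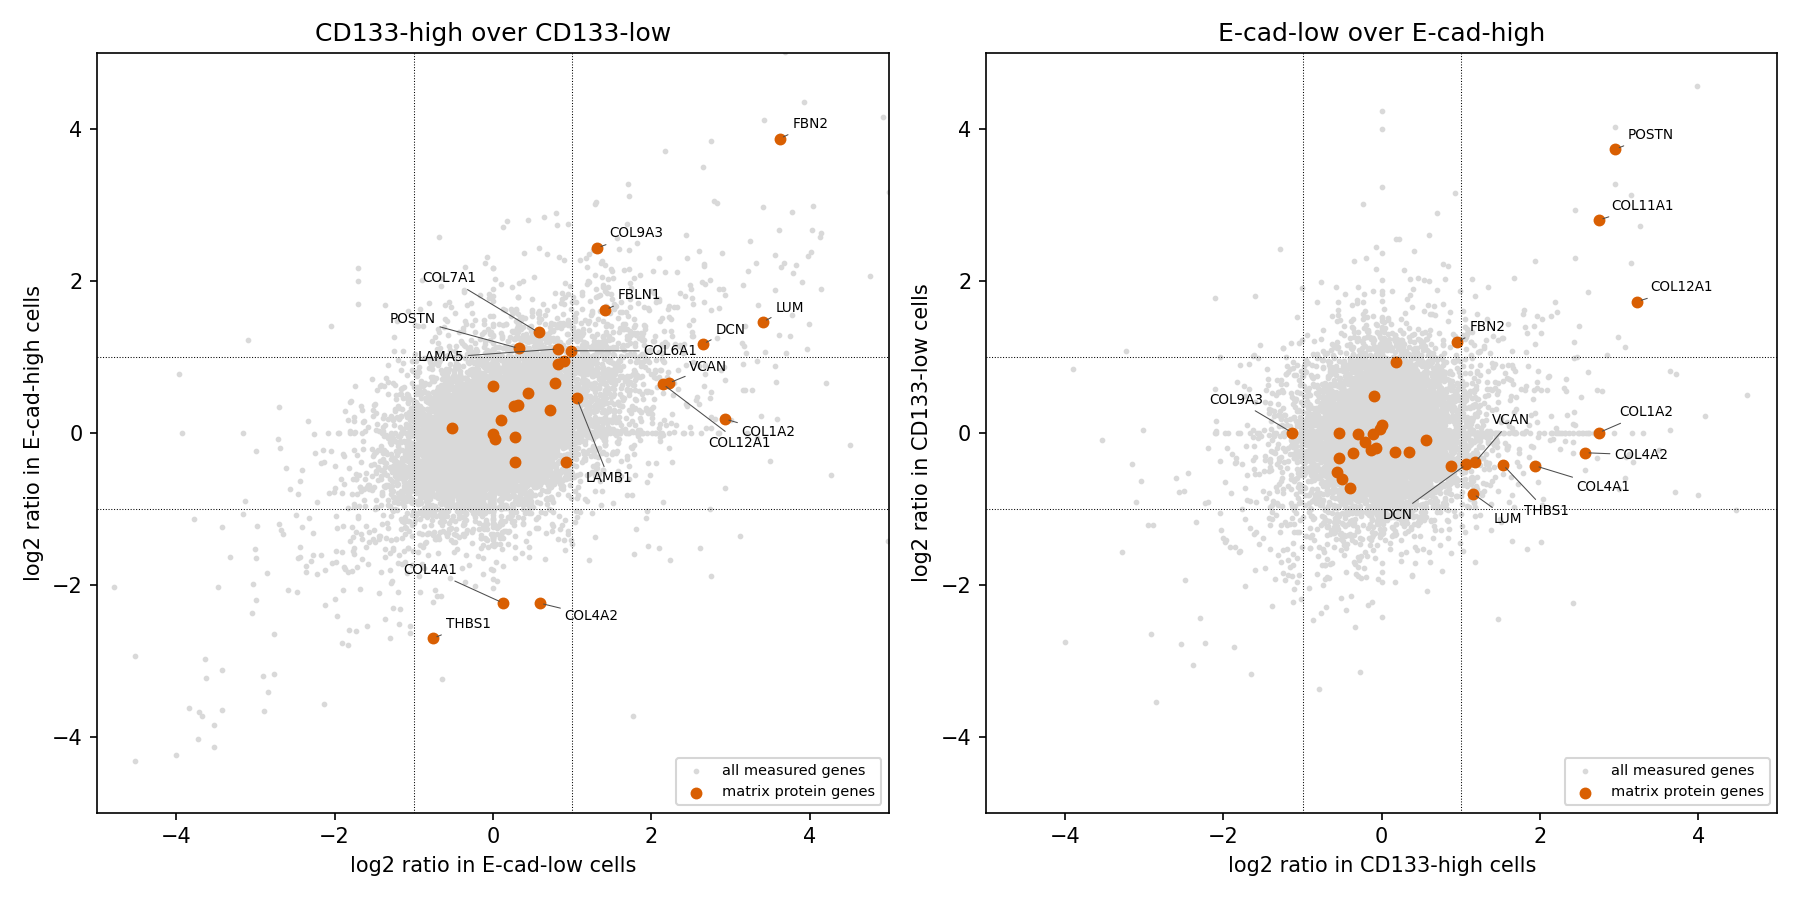
Log2 ratios of the 31 measured matrix protein genes (orange) and of all 14083 measured genes (grey) in the matched pairs of arrays, for CD133-high over CD133-low cells at left and E-cad-low over E-cad-high cells at right. Each axis is 1 pair, dotted lines mark 2-fold, genes at the floor in a pair are at 0, and 12 genes at left and 6 at right lie beyond the axis limits of 5. FBN2 is at 3.62 and 3.87 at left, POSTN and COL11A1 are at 2.95 and 3.73 and at 2.74 and 2.80 at right, and COL4A1, COL4A2 and THBS1 are 2-fold apart in 1 of the pairs.

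In the E-cadherin comparison, 3 of the 31 matrix genes were at least 2-fold higher in E-cad-low cells in both pairs, against a background of 0.476%, and 0 were lower, against 0.54%. The 3 were POSTN, COL11A1 and COL12A1, of which COL11A1 alone passed with the mean over the probe sets of a gene. COL12A1 did not pass with the floor at the 65th percentile, nor POSTN when probe sets whose ID marks them as shared were left out. The median log2 ratio of the 31 was 0.17 among CD133-high and -0.20 among CD133-low cells, with 0.00 over all measured genes in either pair. With equal array medians the median over all genes was -0.12 in CD133-high cells, and that of the 31 was -0.00. Ratios were above 0 in both pairs for 6 genes (19.4%, against 21.3%) and below 0 in both for 10 (32.3%, against 24.4%). The additive limma fit had 2 of 31 higher at an adjusted p under 0.05 (background 0.0639%) and 0 lower (background 0.0852%), with 4 and 2 at an unadjusted p under 0.05 (backgrounds 3.44% and 3.49%). With a spread that does not vary with the signal, 0 were called in either direction (backgrounds 0.0% and 0.0%). At 1.5-fold in both pairs 4 genes were higher (background 1.78%) and 0 lower (background 1.83%), and at 3-fold 3 were higher (background 0.128%) and 0 lower (background 0.0923%).

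POSTN codes for periostin, a matricellular protein that binds collagen and integrins and is made by fibroblasts in tumours. Its signal was 1219.85 and 970.4 in E-cad-low CD133-high and E-cad-low CD133-low cells, against 157.6 and 73.0 in the E-cad-high cells. It was 7.74-fold higher in E-cad-low cells among CD133-high and 13.3-fold among CD133-low cells, with an adjusted p of 0.0380 in the additive limma fit. A second probe set read 180.3 and 136.0 in E-cad-low cells and lay below the floor in both E-cad-high subpopulations. Both probe sets separated the E-cad-low from the E-cad-high arrays.

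COL11A1 codes for a chain of type XI collagen, which nucleates thin fibrils. It read 889.4 and 478.8 in E-cad-low cells of the CD133-high and CD133-low classes, against 132.7 and 68.7 in the E-cad-high cells. Its E-cadherin fold was nearly equal in both classes, at 6.70 and 6.97, with an adjusted p of 0.0380 in the additive limma fit. Within either E-cadherin class it was also higher with CD133, by 1.86-fold and 1.93-fold, short of the rule. Another probe set gave 710.8 and 353.8 in E-cad-low cells, against 89.6 and 74.1 in E-cad-high cells. The remaining probe set was above the floor in E-cad-low CD133-high cells only.

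COL12A1 codes for type XII collagen, which decorates the surface of fibrils. It read 1019 and 230.3 in E-cad-low cells of the CD133-high and CD133-low classes, against 108.6 and 69.6 in E-cad-high cells. The E-cadherin fold was 9.38 among CD133-high and 3.31 among CD133-low cells, and the adjusted p in the additive limma fit was 0.180. None of the 3 other probe sets above the floor had positive ratios in both pairs. Of these, 1 read 414.1 in E-cad-low CD133-high cells and lay below the floor on the other arrays, and another read 57.6 and 82.0 in E-cad-low cells, against 41.7 and 76.6 in E-cad-high cells.

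The remaining members of these families did not follow E-cadherin to this extent. COL3A1, the type III fibrillar collagen, read 19767 and 15938 in E-cad-low cells of the CD133-high and CD133-low classes, against 29221 and 22769 in E-cad-high cells, log2 ratios of -0.56 and -0.51. Of its 3 other probe sets above the floor, 1 had -0.76 and -0.27, another -0.52 and 0.03 and the last 0.09 and 0.09. COL5A2, a type V chain whose gene lies 19151 bases from COL3A1 on chromosome 2, read 11969.8, 12119, 11163.5 and 10768 in E-cad-low CD133-high, E-cad-high CD133-high, E-cad-low CD133-low and E-cad-high CD133-low cells, so its arrays were nearly level by its main probe set. Its second probe set read 7118, 6785, 4791 and 5749 in the same order. That gave CD133 folds of 1.49 in E-cad-low and 1.18 in E-cad-high cells. LAMC1, the laminin chain shared by most laminins, read 7636 and 7508 in E-cad-low cells, against 10849 and 11467 in E-cad-high cells. Its log2 ratios were -0.51 and -0.61, and those of its second probe set -0.72 and -0.52. COL1A1, a chain of type I collagen, read 1935 and 1614 in E-cad-low cells, against 2087 and 1636 in E-cad-high cells by its main probe set, so that its log2 ratios were -0.11 and -0.02. Of 2 other probe sets above the floor on all arrays, 1 had E-cadherin ratios of 0.42 and -0.49 and the other of -0.32 and -0.83.

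Members near the floor or level between arrays make up the rest. COL18A1, the source of the angiogenesis inhibitor endostatin, read 335.9 and 481.2 in E-cad-low cells of the CD133-high and CD133-low classes, against 359.3 and 343.0 in E-cad-high cells. Its other probe set, above the floor on all 4 arrays, was instead lowest in E-cad-low CD133-low cells, at 136.3. That probe set read 208.3 in E-cad-low CD133-high, 162.9 in E-cad-high CD133-high and 196.7 in E-cad-high CD133-low cells. COL13A1, a transmembrane collagen, was above the floor only in E-cad-high CD133-high cells by its main probe set, at 87.8, and only in E-cad-high CD133-low cells by another, at 89.4. COL5A1, a type V chain, ranged from 43.6 to 67.1 and LOXL2, a collagen crosslinking oxidase, from 7.36 to 79.4, so that neither gave a ratio of 2-fold by its main probe set after flooring. The 7 genes below the floor throughout include SPARC, a collagen-binding matricellular protein (2.41 to 41.3), TNC, tenascin C (9.37 to 41.9), and BGN, the small proteoglycan biglycan (2.99 to 45.7). The others were the type VI chain COL6A3 (6.71 to 48.8), the laminin chain LAMA4 (2.12 to 36.7), the crosslinking oxidase LOX (15.9 to 39.6) and HSPG2, perlecan (9.24 to 54.6).

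Single pairs were also counted. In E-cad-low cells, 9 of 31 matrix genes were at least 2-fold higher with CD133 (background 8.11%) and 0 lower (background 4.27%). In E-cad-high cells, 9 were higher (background 5.04%) and 3 lower (background 3.24%). For E-cadherin among CD133-high cells, 10 were higher in E-cad-low cells (background 3.81%) and 1, COL9A3, was lower (background 2.53%). Among CD133-low cells, 4 were higher (background 2.63%) and 0 lower (background 2.87%). The CD133 and E-cadherin comparisons use the same 4 arrays, so these counts are not separate evidence. In at least 1 of the 4 pairs 17 genes were 2-fold apart (54.8%, against 20.6%), and 0 were 2-fold apart in opposite directions in the pairs of CD133 (background 0.227%) or of E-cadherin (background 0.234%).

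**Figure D3:**
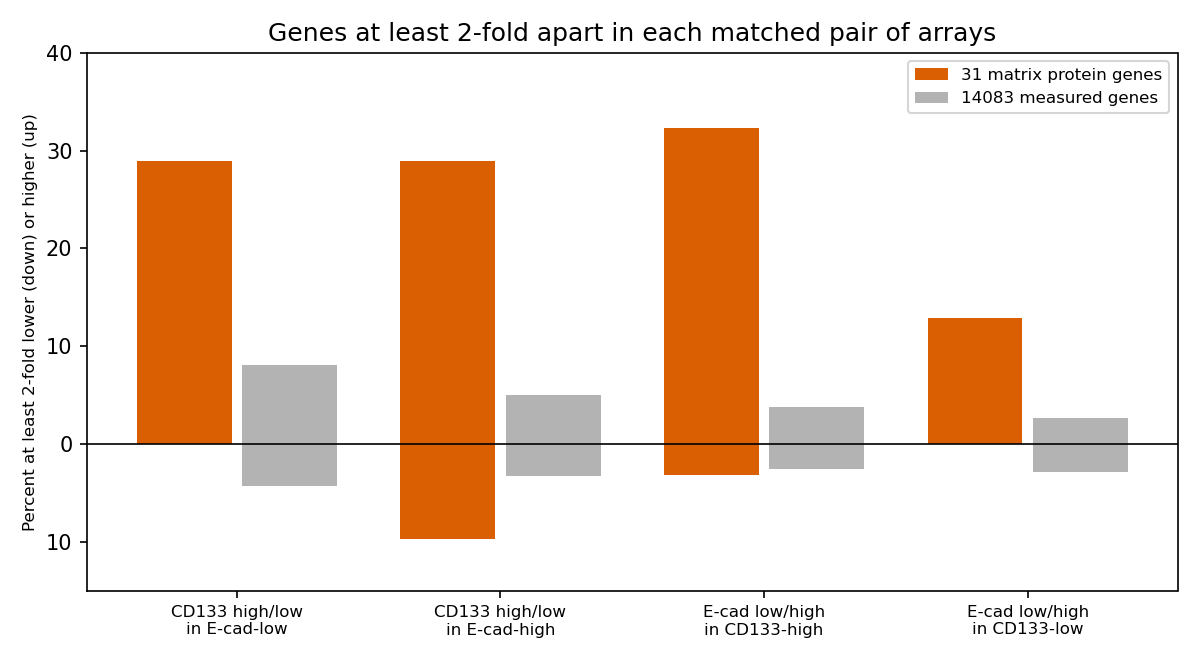
Percent of the 31 measured matrix protein genes (orange) and of the 14083 measured genes (grey) that were at least 2-fold higher (bars above 0) or lower (bars below 0) in each matched pair of arrays. The bars above 0 for the matrix genes are 29.0%, 29.0%, 32.3% and 12.9%, each taller than the grey bar beside it.

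Among the genes 2-fold apart in a single pair, 1 set was high on the array of E-cad-low CD133-high cells. COL1A2, a chain of type I collagen, read 434.7 and 65.1 in E-cad-low and E-cad-high CD133-high cells, against 18.6 and 18.8, both under the floor, in CD133-low cells. It was at least 7.62-fold higher with CD133 in E-cad-low cells and 6.68-fold higher with low E-cadherin in CD133-high cells. Its second probe set, with 554.4 in E-cad-low CD133-high cells, read 28.2 in E-cad-high CD133-high, 84.5 in E-cad-low CD133-low and 7.35 in E-cad-high CD133-low cells. All 3 of its probe sets above the floor had their highest signal on the same array.

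VCAN codes for versican, a large hyaluronan-binding proteoglycan. It read 553.1 and 243.8 in E-cad-low and E-cad-high CD133-high cells, against 118.9 and 155.1 in CD133-low cells. The CD133 fold was 4.65 in E-cad-low and 1.57 in E-cad-high cells. All 5 of its probe sets above the floor were highest in E-cad-low CD133-high cells. AGRN, agrin, a heparan sulfate proteoglycan of basement membranes, read 254.0 and 138.3 in CD133-high cells, against 133.6 and 180.5 in CD133-low cells, and its 3 probe sets above the floor differed in which CD133 class was higher among E-cad-low cells.

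A second set was low on the array of E-cad-high CD133-high cells. COL4A1 and COL4A2 code for the chains of the common basement membrane collagen and are transcribed in opposite directions from the shared region shown above. COL4A1 read 758.4 and 198.1 in E-cad-low and E-cad-high CD133-high cells, against 693.6 and 936.8 in the CD133-low cells. COL4A2 read 361.6 and 61.0 in CD133-high cells, against 240.5 and 288.5 in CD133-low cells. Thus the E-cad-high CD133-high array was the lowest for both genes, while the pairs without that array had log2 ratios of 0.13 and -0.43 for COL4A1 and of 0.59 and -0.26 for COL4A2. The CD133 fold in E-cad-high cells was 4.73 in the direction of lower signals for either gene, log2 ratios of -2.24. For COL4A2 this fold rests on a signal of 61.0, close to the floor of the E-cad-high CD133-high array (53.7). With the floor at the 65th percentile, the mean log2 CD133 ratio of COL4A2 went from -0.83 to -0.17. The second probe set of each gene was also lowest on that array, at 9.38 for COL4A1 and 7.75 for COL4A2, and both were below the floor in E-cad-low CD133-low cells as well (22.3 and 28.3).

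THBS1 codes for thrombospondin-1, a matricellular protein that binds cell receptors and latent TGF-beta. It read 167.9 and 58.1 in E-cad-low and E-cad-high CD133-high cells, against 283.7 and 379.3 in CD133-low cells. It was the matrix gene with lower signals in CD133-high cells in both pairs, with log2 ratios of -0.76 and -2.71, of which the first was short of 2-fold. The second rests on the signal of 58.1, close to the floor of the E-cad-high CD133-high array (53.7). The other THBS1 probe set above the floor on any array gave 59.2 and 13.1 against 95.8 and 214.0. Whether the CD133 ratios of COL4A1, COL4A2 and THBS1 differ between the E-cadherin classes was not tested, as each class had 1 pair of arrays.

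**Figure D4:**
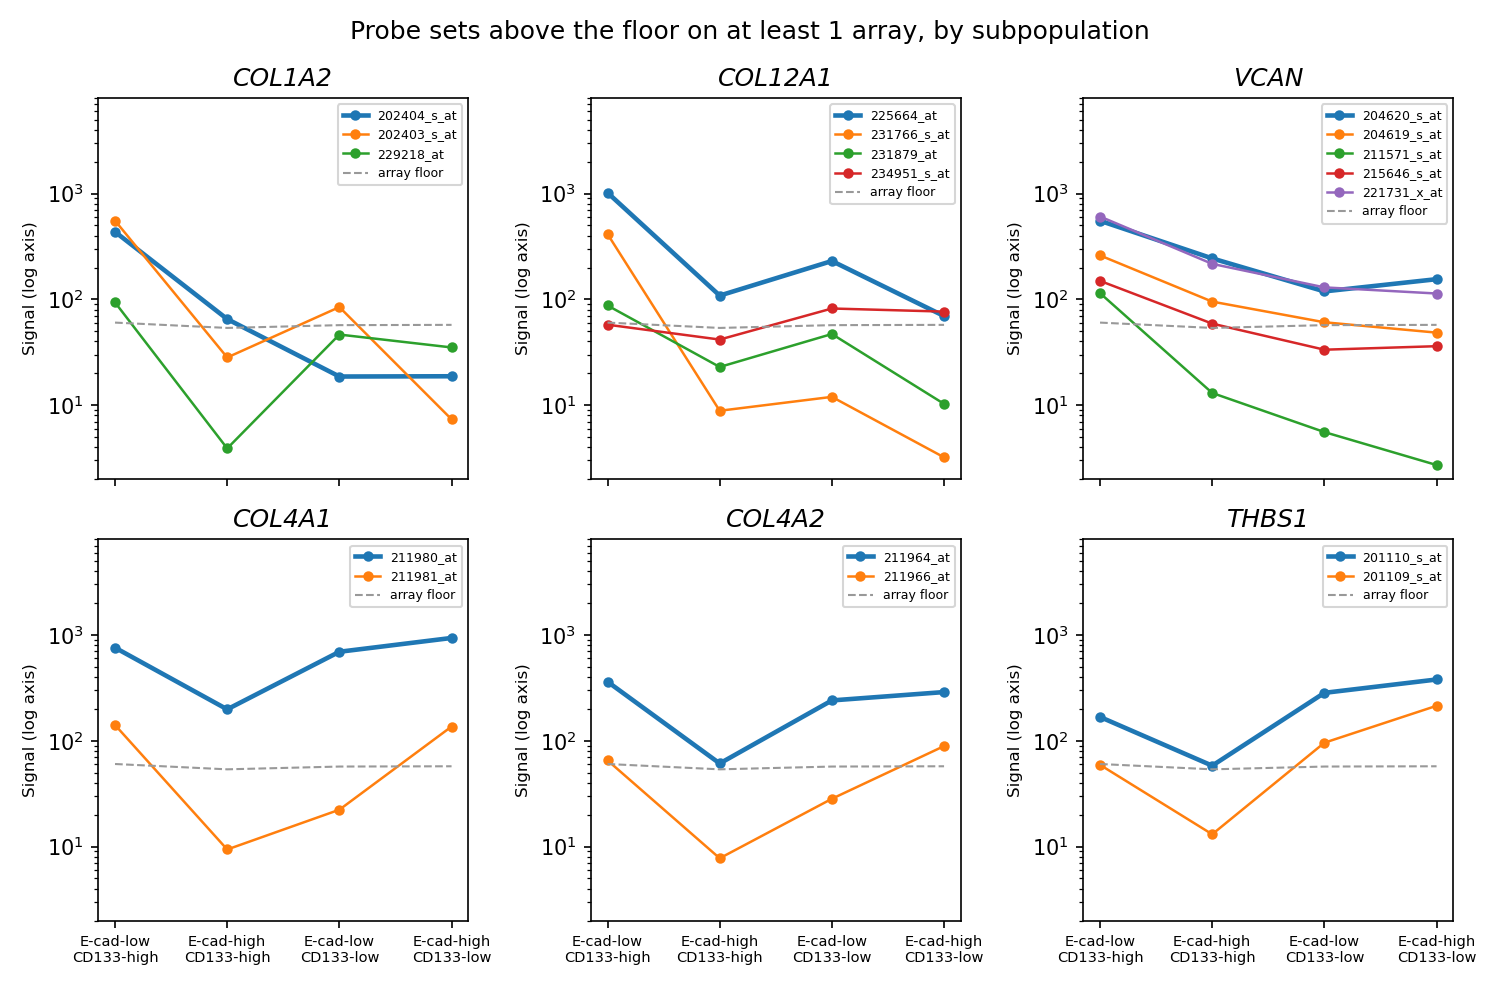
Signals (log axis) of the probe sets above the floor on at least 1 array for 6 matrix genes, by subpopulation from E-cad-low CD133-high at left to E-cad-high CD133-low at right. Thick lines are the main probe sets, each point is 1 array and the dashed line is the array floor. COL1A2, COL12A1 and VCAN peak in E-cad-low CD133-high cells by their main probe sets (434.7, 1019 and 553.1), and COL4A1, COL4A2 and THBS1 are lowest in E-cad-high CD133-high cells (198.1, 61.0 and 58.1).

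Other matrix genes were counted in lists named by function, whose counts stand against 2.45% of measured genes higher and 1.12% lower with CD133, and 0.476% higher and 0.54% lower with low E-cadherin. Of 12 measured collagens outside the main list, 0 were counted in either comparison. Of 24 measured genes of collagen synthesis and processing, 0 were higher and 1 was lower in CD133-high cells. That was TLL2, a procollagen protease, with log2 ratios of -1.30 and -1.59 by its main probe set, while another of its probe sets had 0.35 in E-cad-high cells. Of 25 measured elastic fibre genes and other glycoproteins, 0 were counted in either comparison.

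Among 18 other proteoglycans, SRGN and GPC3 were higher and GPC6 was lower in CD133-high cells. SRGN, serglycin, read 658.2 and 552.0 in E-cad-low and E-cad-high CD133-high cells, against 239.6 and 146.5 in CD133-low cells. GPC3, a glypican of the cell surface, read 327.7 and 254.0, against 101.2 and 113.8. GPC6, another glypican, read 78.1 and 100.1, against 839.4 and 868.7, so that related glypicans differed in opposite directions with CD133. Of 3 measured other laminins, LAMA1 was lower in CD133-high cells, with 83.9 and 70.7 against 207.5 and 461.0. Of 16 measured matrix receptors, 0 were counted with CD133 and ITGB4, the integrin of hemidesmosomes, was lower in E-cad-low cells, with 132.6 and 68.7 in the CD133-high and CD133-low classes against 287.1 and 208.2 in E-cad-high cells. Another ITGB4 probe set, above the floor in the E-cad-low cells alone, had log2 ratios of 0.94 and 0.37.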

How the data were processed

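The deposited table holds 1 intensity per probe set and array on a linear scale, made by the authors with MAS5, per the submitters' processing notes, and the sources used here give no version or settings. Trimmed by 2% of probe sets at each end, the mean intensity was 499.9 on each array, so arrays had been scaled singly. Of 54675 probe sets, 62 were controls, 41091 had 1 symbol in the platform annotation and 1801 had several; the last were not used, among them 1 of LAMA5. Genes were named through RefSeq gene IDs (GRCh38.p14). Signals below the 50th percentile of the array were set to it. Precision is limited by having 4 arrays, and scan dates were not used here. The members and lists were chosen with earlier results of these data known. Any of the 38 matrix genes could be named, and of each other list up to 4 counted genes by the smaller absolute log2 ratio. Log2 ratios, counts and the additive limma fit, which let the spread vary with the mean signal and used Benjamini-Hochberg adjustment over 14083 genes, were tested on simulated data. Alternatives were the normalization, the floor, the threshold, the probe set rule and that fit. Tools were Python 3.11.15, numpy 2.4.6, pandas 2.3.3, matplotlib 3.10.9, R 4.3.3 and limma 3.58.1.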

Additional observations from a re-analysis of the deposited data

How the results depend on the processing

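Main counts were 5 matrix genes higher and 0 lower in CD133-high cells, and 3 higher and 0 lower in E-cad-low cells. Quantile normalization and equal array medians gave the same counts. The count higher in CD133-high cells was 2 with the floor at the 65th percentile, 12 at 1.5-fold, 1 at 3-fold, 3 with the mean over probe sets, and 1 when probe sets whose ID marks them as shared were left out. That setting left LUM and DCN with no probe set above the floor and COL9A3 with no probe set. FBLN1 was then represented by another probe set, whose mean log2 ratio of 1.22 included a pair short of 2-fold. The count higher in CD133-high cells was 1, FBN2, in the additive limma fit. It was also 1 when that fit let the spread not vary with the mean, a setting chosen after seeing the data. The count lower was 1 (THBS1) at 1.5-fold. The count higher in E-cad-low cells was 5 without a floor and 5 with the floor at the 25th percentile, which add SPARC and BGN at signals under the 50th percentile. It was 1 (COL11A1) with the mean over probe sets and 0 in the limma fit without the trend (4 at an unadjusted p under 0.05 with the trend). The count lower was 1 (COL13A1) without a floor and 1 with the floor at the 25th percentile. Except where the construction shows it, the cause was not tested. Of 656 single-gene ratios under alternatives, 614 kept their side of the rule, 25 lost it and 17 gained it. After being counted, 0 changed direction. Most of the 656 were ratios that the main rule did not count, and staying uncounted was taken as keeping their side. The 25 losses all fell on the few ratios that the main rule had counted. A gene with no signal above the floor under a setting was left out of these numbers. The losses of COL9A3, LUM, DCN and POSTN without shared probe sets are therefore not among the 25. No paired analysis was possible because the labels carry no replicate numbers to use as a block, and the only pairing is that of arrays matched on the other marker, which the counts and the additive limma fit already use. Signals near the floor limit FN1, FBN1, COL5A1, COL13A1 and LOXL2, and on the E-cad-high CD133-high array also COL4A2 and THBS1.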
